A study of Homo sapiens with 78 samples.

Results

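The mRNAs of 7 ligands of the tumor necrosis factor (TNF) superfamily were followed in A549, an epithelial cell line that was established from a human lung carcinoma. The genes were TNF, LTB, TNFSF14, TNFSF9, TNFSF15, TNFSF10 and TNFSF13B. They were chosen by symbol as ligands of this family, and all 7 were found among the 19652 genes listed. Treated cells received IL-1β (IL1B, an inflammatory cytokine that activates NF-κB) at 1 ng/ml together with the glucocorticoid budesonide at 300 nM, IL-1β alone, or budesonide alone, and were compared with cells that were not stimulated (NS). Budesonide activates the glucocorticoid receptor (GR). Cells were harvested after 1, 2, 6, 12 and 24 h. All cells were wild type, had been kept overnight without serum, and were moved to fresh serum-free medium when treatment began. There were 78 labelled libraries in 20 groups, with 4 libraries in each group except IL-1β-plus-budesonide at 12 h and NS at 6 h, which held 3 each. The labels give 4 independent experiments, but 3 for the 12 h time point, although 3 of the 4 groups at 12 h hold 4 libraries. Single libraries are not tied to experiments, so n counts libraries, and p-values measure the spread between them, some of which at 12 h may come from the same experiment.

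TNF superfamily ligands are mostly made as membrane proteins that act on neighboring cells, and several are also released by proteases. They bind receptors of the TNF receptor superfamily as trimers, and those receptors either recruit TRAF adaptors that activate NF-κB or carry a death domain that can start apoptosis. Immune cells are the usual source of many of them, and epithelial cells can also transcribe some. Transcription of TNF and LTB is classically driven by NF-κB, and glucocorticoids repress many inflammatory genes of this kind.

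Values are TPM, a measure of transcript abundance that takes transcript length into account, which the authors had rescaled between libraries. The treatments could be read in genes chosen as checks. CXCL8, a chemokine gene induced by NF-κB, was higher with IL-1β than in NS by 7.50 to 8.85 on the log2 scale over the 5 times. TSC22D3, a glucocorticoid-induced gene, was higher with budesonide than in NS by 2.36 to 4.70. The T and B cell markers CD3E, CD3D and MS4A1 were listed at 0 in all libraries and the leukocyte marker PTPRC did not exceed 0.71 TPM. The summed level of 11 immune cell markers was 12.5 to 20.1 TPM with IL-1β-plus-budesonide, 11.2 to 46.6 TPM with IL-1β, 5.66 to 17.3 TPM with budesonide and 8.24 to 17.3 TPM in NS. Of the 11, CD14, CD68 and ITGAM passed the filter described below. All 3 were called up by IL-1β at 1 or more times, against 7.53% of all genes. CD68 was called up by 2.14 at 24 h and had 4.30 to 41.7 TPM over all libraries. The part of these 3 genes in the results was not tested. The profile of 5 libraries stood further from its group's median profile (distance 0.311 to 0.451, at most 0.21 elsewhere). They were library 4 of IL-1β-plus-budesonide at 1 h, library 2 of that treatment at 12 h, library 2 of IL-1β at 24 h, and in budesonide library 3 at 2 h and library 2 at 12 h. In whole cultures, fewer cells that express a gene and less of its RNA per cell cannot be told apart.

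The genes lie at 5 places in the genome (hg38, GENCODE). TNF (chr6:31575565-31578336, plus strand) and LTB (chr6:31580525-31582522, minus strand) are next to each other with 2189 bases between them. TNFSF9 (chr19:6531026-6535924, plus strand) and TNFSF14 (chr19:6661253-6670588, minus strand) share a chromosome at a distance of 125329 bases. CD70, another ligand of the family, lies between these (47259 bases from TNFSF9 and 57150 bases from TNFSF14). TNFSF10 (chr3:172505508-172523475, minus strand), TNFSF13B (chr13:108251240-108308484, plus strand) and TNFSF15 (chr9:114784652-114806039, minus strand) share no chromosome with another of the 7. The ligand gene TNFSF8 is the nearest protein-coding gene to TNFSF15 at higher coordinates, at 87304 bases. No exon of the 7 overlapped an exon of another gene. Between 0 and 5.66% of the 31-base words of their transcripts occurred in other genes, most in TNFSF14 (5.66%) and TNFSF15 (4.05%).

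Short promoter stretches are shown as a description, and their relation to the time courses was not tested. They are from RefSeq windows (GRCh38.p14) of 300 bases around each start, found for all 7 genes, and are written 5′ to 3′ on the strand of the gene with the match in capitals. LTB and TNFSF14 held a match to the NF-κB consensus, which 11.3% of 35116 promoters of that length also held. Counted from the RefSeq start, the match shown begins at −86 in LTB, which has a further match at 38, and at −192 in TNFSF14, where overlapping matches are marked as 1 run.
LTB, chr6:31582492-31582521: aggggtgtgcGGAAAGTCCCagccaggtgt
TNFSF14, chr19:6670333-6670361: gggaaagctGGGGGCTCCCCactgcactt
The interferon-type motif (GAAA, any 2 bases, GAAA), searched on both strands like the others, was found in 4 of the 7 (TNFSF9, TNFSF10, TNFSF13B and TNFSF14) and in 3.6% of all promoters. It is shown for TNFSF13B and TNFSF10, which both peaked with IL-1β at 6 h. TNFSF9 and TNFSF14 had their highest means elsewhere, with IL-1β at 1 h and with IL-1β-plus-budesonide at 24 h, and are not shown for this motif. In TNFSF10 it lies on the other strand, and in TNFSF13B it begins at 18, after the start.
TNFSF13B, chr13:108269637-108269666: tacaaaaactGAAAGTGAAAtgaggaagac
TNFSF10, chr3:172523598-172523627: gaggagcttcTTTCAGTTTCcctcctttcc
The AP-1 motif TGANTCA was found in TNFSF14 and TNFSF15, against 7.7% of all promoters. The windows of LTB, TNFSF10, TNFSF13B, TNFSF14 and TNFSF15 lie at starts inside the span of the annotated gene.
TNFSF14, chr19:6670310-6670336: acttgccaccTGAGTCAcattttcaga
A TATAAA box was found in TNF, TNFSF9 and TNFSF10, against 11.5% of all promoters. The GR-type element AGAACA was found in none of the 7 windows, against 14.8% of all promoters. TNF held none of the NF-κB, AP-1, interferon-type or AGAACA motifs in its window. A match is a run of letters and not a binding site, and no match concerns only these windows. The first 250 bases of the TNF window (chr6:31575315-31575614) are printed because TNF was listed at 0 in most libraries without IL-1β, with the TATA box in capitals.
TNF, 250 bases before the start: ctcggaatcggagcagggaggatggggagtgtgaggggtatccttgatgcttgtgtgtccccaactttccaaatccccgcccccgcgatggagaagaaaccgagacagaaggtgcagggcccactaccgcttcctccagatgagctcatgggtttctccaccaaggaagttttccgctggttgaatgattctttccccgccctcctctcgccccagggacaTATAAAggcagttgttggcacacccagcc

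Changes were tested in limma on log2(TPM + 0.5), a scale that understates the change of genes with low values, and p-values were adjusted (Benjamini-Hochberg) over the 13327 genes that reached 1 TPM in 3 or more libraries. Calls needed an adjusted p of 0.05 or less together with a log2 change of 1 or more in either direction. All 7 ligands passed the filter, but not in the same way. TNFSF13B reached 1 TPM in 4 libraries, all IL-1β at 6 h. TNFSF14 reached it in 13 libraries, all IL-1β-plus-budesonide or IL-1β. TNF reached it in 27 libraries, also all from these 2 treatments. LTB reached it in 39 libraries, all from these 2 treatments except 1 NS and 1 budesonide library at 1 h. TNF, TNFSF13B, TNFSF14 and LTB therefore entered the test only through groups in which they were high. The number of calls over the 7 is thus a description. TNFSF9 reached 1 TPM in all 78 libraries, TNFSF10 in 54 and TNFSF15 in 51.

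**Figure D1:**
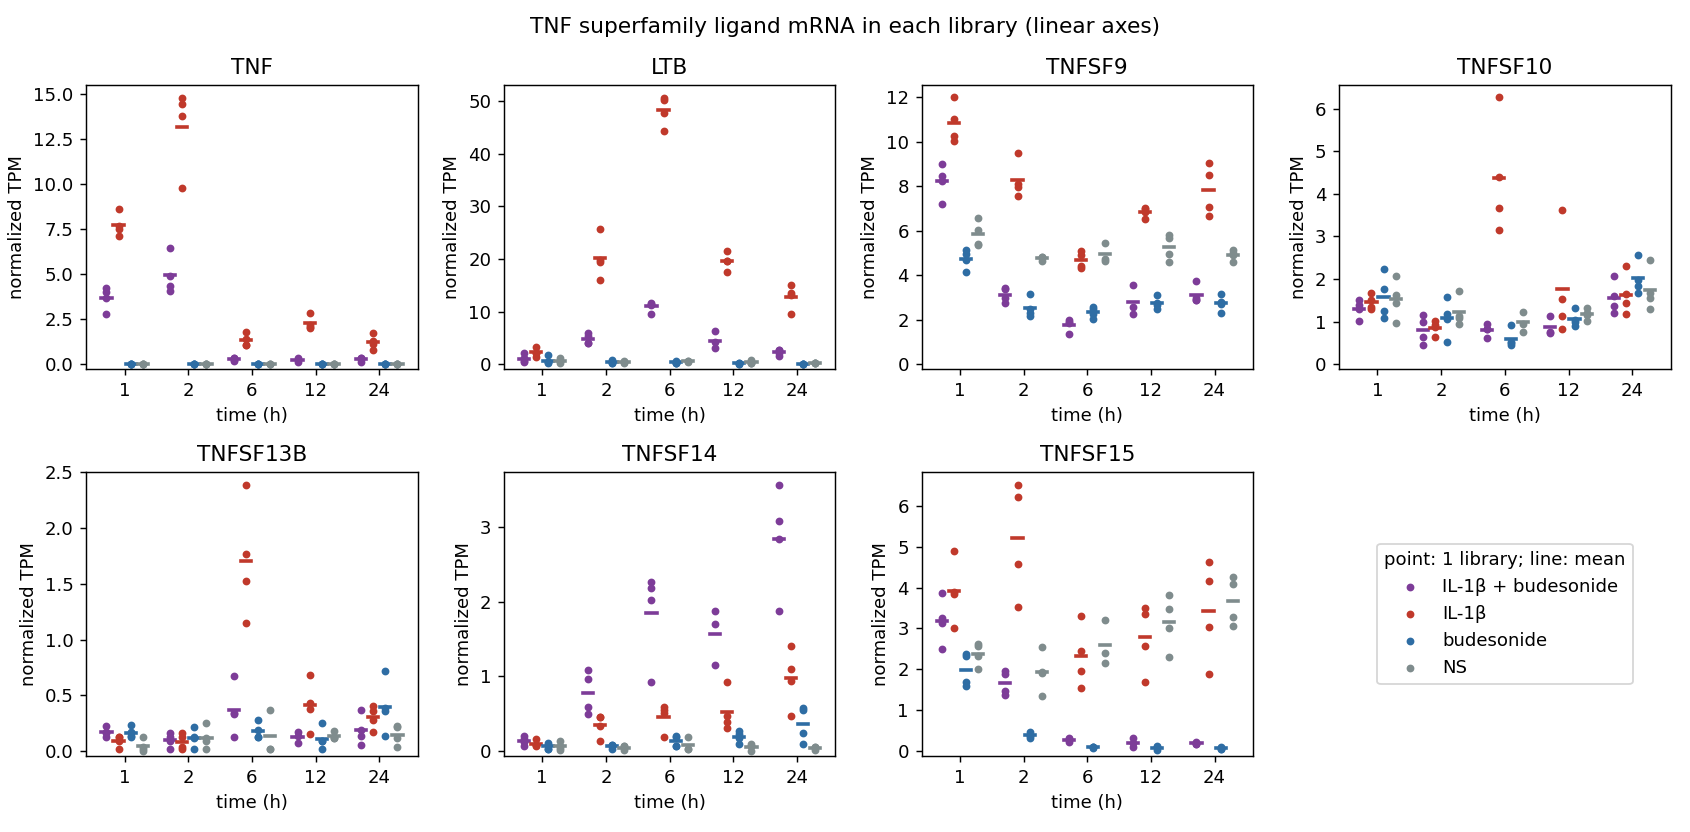
Normalized TPM (y axis, linear, own scale per gene) of each library (points) and group mean (lines) against time in hours (x axis), for IL-1β-plus-budesonide, IL-1β, budesonide and NS. TNF and LTB were high only where IL-1β was present, TNFSF14 was highest with IL-1β-plus-budesonide, and TNFSF15 was near 0 from 6 h in both groups with budesonide.

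TNF, the founding inflammatory cytokine of the family, was listed at 0 in 35 libraries, all of them budesonide or NS. At 2 h, its highest point, it had 14.5, 13.8, 9.78 and 14.8 TPM in IL-1β libraries, against 0, 0, 0.0262 and 0 TPM in NS libraries. At 1 h it had 8.63, 7.50, 7.68 and 7.11 TPM with IL-1β, against 0, 0, 0 and 0.0356 TPM in NS. The groups did not overlap at any time. TNF was called up by IL-1β at all 5 times (limma adjusted p of 6.3e-42 at 2 h and 1.9e-19 at 24 h). No fold is given against values at 0.

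The TNF rise was early and then fell away. With IL-1β the means at 1, 2, 6, 12 and 24 h were 7.73 ± 0.65, 13.2 ± 2.3, 1.34 ± 0.34, 2.27 ± 0.37 and 1.22 ± 0.39 TPM (SD, n = 4). The 2 h libraries lay above all 1 h libraries, and both above all later ones, whereas the 6 h and 24 h libraries overlapped. The IL-1β response was smaller at 6 h than at 2 h by a log2 difference of −2.91 ± 0.18 (SE), the largest downward step of any of the 7 genes between neighboring times.

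Budesonide with IL-1β lowered TNF relative to IL-1β alone. At 2 h TNF had 4.90, 4.36, 4.04 and 6.47 TPM with IL-1β-plus-budesonide, against 14.5, 13.8, 9.78 and 14.8 TPM with IL-1β. At 12 h it had 0.208, 0.329 and 0.145 TPM with IL-1β-plus-budesonide, against 2.07, 2.16, 2.82 and 2.02 TPM with IL-1β. The libraries with budesonide lay below all IL-1β libraries at each of the 5 times. In time order, the ratios of the means were 0.476, 0.374, 0.198, 0.100 and 0.217. The log2 change was called from 2 h (−1.33 ± 0.12, adjusted p = 1.6e-13) to 24 h (−1.15 ± 0.12, adjusted p = 5.0e-12) and was −0.99 ± 0.12 at 1 h. Without the 5 far libraries the 1 h change was −1.03 and called, and without the libraries numbered 4 the 24 h change was −0.92 and lost its call. Its calls at 6 h (−0.88) and 24 h (−0.80) were lost with a pseudocount of 1 in place of 0.5. TNF with IL-1β-plus-budesonide was still called up against NS at 1 and 2 h. At 6, 12 and 24 h its means were 0.265, 0.228 and 0.266 TPM, all libraries above those of NS, and it was not called. It was called at these times too with a pseudocount of 0.1, which gives low values more weight.

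LTB encodes lymphotoxin-β, the membrane anchor of the lymphotoxin heterotrimer that binds LTBR. It had the highest level of the 7 genes. At 6 h it had 50.3, 44.4, 50.6 and 47.8 TPM in IL-1β libraries, against 0.476, 0.673 and 0.618 TPM in NS libraries. The groups were separate at every time, and the ratios of the means in time order were 3.44, 45.7, 82.0, 54.5 and 64.3. LTB was called up by IL-1β at all 5 times, with log2 changes in time order of 1.29 ± 0.25 (adjusted p = 0.00021), 4.45 ± 0.25, 5.49 ± 0.27 (adjusted p = 1.2e-26), 4.59 ± 0.25 and 4.24 ± 0.25. The 1 h call was lost in a fit of the 1 h libraries alone (adjusted p = 0.136) and with a pseudocount of 1 (0.98).

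LTB peaked later than its neighbor TNF. Its means with IL-1β at 1, 2, 6, 12 and 24 h were 2.23 ± 0.83, 20.3 ± 4.0, 48.3 ± 2.9, 19.6 ± 1.6 and 12.8 ± 2.3 TPM (SD, n = 4). The 6 h libraries lay above all others, and the 2 h and 12 h libraries overlapped. The response grew by 3.17 ± 0.35 on the log2 scale between 1 and 2 h (adjusted p = 2.2e-10). The further step of 1.04 ± 0.37 to 6 h had an adjusted p of 0.038 and lost its call with any 1 set of same-numbered libraries left out (adjusted p of 0.0631 to 0.16). At 24 h LTB was still at 9.63 to 15.1 TPM, whereas TNF was at 0.765 to 1.72 TPM in the same libraries.

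With budesonide added, LTB at 6 h was 9.58, 11.2, 11.7 and 11.5 TPM with IL-1β-plus-budesonide, against 50.3, 44.4, 50.6 and 47.8 TPM with IL-1β. At 24 h it was 1.57, 2.69, 2.18 and 2.6 TPM with IL-1β-plus-budesonide, against 9.63, 15.1, 13.5 and 13.2 TPM with IL-1β. From 2 h the groups were separate, and the ratio of the means lay at 0.236, 0.228, 0.229 and 0.176 at 2, 6, 12 and 24 h. The log2 change was called at these 4 times, between −1.97 ± 0.25 at 2 h (adjusted p = 8.3e-09) and −2.28 ± 0.25 at 24 h (adjusted p = 1.9e-11), and was −0.87 ± 0.25 at 1 h (adjusted p = 0.093). Without the 5 far libraries, 1 of which is in IL-1β-plus-budesonide at 1 h, the 1 h change was −1.15 and called (adjusted p = 0.0036). LTB with IL-1β-plus-budesonide stayed called up against NS from 2 h to 24 h, with log2 changes of 2.48, 3.40, 2.54 and 1.96. Budesonide alone gave LTB 0.105, 0.0347, 0 and 0 TPM at 24 h, against 0.174, 0.221, 0.223 and 0.180 TPM in NS. Those groups did not overlap, but the change of −0.39 ± 0.25 was not called. It was −1.21 and called with a pseudocount of 0.1.

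TNFSF14 encodes LIGHT, which also binds LTBR and costimulates T cells through TNFRSF14. It was the one gene of the 7 called higher with IL-1β-plus-budesonide than with IL-1β. At 24 h it had 3.57, 3.09, 2.84 and 1.87 TPM with IL-1β-plus-budesonide, against 0.932, 1.09, 1.4 and 0.463 TPM with IL-1β. At the same time it had 0.245, 0.581, 0.547 and 0.0966 TPM with budesonide, against 0.0126, 0.0330, 0.0592 and 0.0525 TPM in NS. At 24 h each of these 4 groups was separate from the others, except that IL-1β and budesonide overlapped.

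The TNFSF14 level climbed over the day. With IL-1β-plus-budesonide the means at 1, 2, 6, 12 and 24 h were 0.134, 0.783, 1.85, 1.57 and 2.84 TPM. With IL-1β it was 0.0980, 0.344, 0.459, 0.525 and 0.973 TPM at those times, with budesonide 0.0644, 0.0616, 0.129, 0.189 and 0.367 TPM, and in NS between 0.0393 and 0.0779 TPM. Against NS, IL-1β-plus-budesonide was called from 2 h (log2 change 1.21 ± 0.18, adjusted p = 3.3e-07) to 24 h (2.61 ± 0.18, adjusted p = 2.4e-19), and the 2 h call was lost with a pseudocount of 1 (0.76). IL-1β alone was called at 24 h (1.41 ± 0.18, adjusted p = 3.2e-09). That call was lost with a pseudocount of 1 (0.90). With a pseudocount of 0.1 IL-1β was also called at 2, 6 and 12 h (1.55, 1.70 and 1.96), where the changes had been 0.61, 0.72 and 0.85. Without the libraries numbered 4 the 6 h change was 1.01 and called. Budesonide alone gave 0.64 ± 0.18 at 24 h (adjusted p = 0.0032), under the minimum for a call. That change was 1.59 and called with a pseudocount of 0.1.

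Against IL-1β, IL-1β-plus-budesonide raised TNFSF14 by 1.27 ± 0.18 at 6 h (adjusted p = 6.8e-08), 1.03 ± 0.20 at 12 h (adjusted p = 2.7e-05) and 1.20 ± 0.18 at 24 h (adjusted p = 2.5e-07) on the log2 scale. The groups were separate from 2 h to 24 h, with ratios of means of 2.27, 4.02, 3.00 and 2.92. The 12 h call was lost without the libraries numbered 1 (0.91), without those numbered 2 (0.93) or without the 5 far libraries (0.98). With a pseudocount of 1 the changes at 6, 12 and 24 h were 0.94, 0.76 and 0.96 and fell under the minimum. The change with both agents exceeded the added changes of each at 6 h by 1.14 ± 0.27 (adjusted p = 0.0021). This call was lost without the libraries numbered 1 (adjusted p = 0.0692), with a pseudocount of 0.1 (adjusted p = 0.079) and with a pseudocount of 1 (0.87).

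TNFSF9 encodes 4-1BBL, the ligand of the T cell costimulatory receptor 4-1BB (TNFRSF9). It was transcribed in every group, with 4.59 to 6.58 TPM in NS. At 1 h it had 12.0, 11.0, 10.0 and 10.2 TPM with IL-1β, against 5.38, 5.40, 6.58 and 6.03 TPM in NS. IL-1β libraries were above all NS libraries at 1, 2, 12 and 24 h and overlapped them at 6 h. The log2 changes of 0.84 ± 0.10, 0.73 ± 0.10, −0.07 ± 0.11, 0.35 ± 0.10 and 0.61 ± 0.10 in time order stayed under the minimum for a call, although the adjusted p was 5.0e-09 at 1 h and 2.1e-06 at 24 h. With budesonide, TNFSF9 at 6 h was 2.50, 2.05, 2.25 and 2.56 TPM, against 4.63, 4.73 and 5.46 TPM in NS. Budesonide libraries lay below all NS libraries at each time, with log2 changes between −0.28 ± 0.10 at 1 h and −0.94 ± 0.11 at 6 h (adjusted p = 6.0e-10), none of them called. Without the libraries numbered 1 the 6 h change was −1.01 and called.

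Budesonide also lowered TNFSF9 in cells with IL-1β. At 6 h it had 1.89, 1.35, 2.00 and 1.83 TPM with IL-1β-plus-budesonide, against 4.92, 4.43, 5.08 and 4.33 TPM with IL-1β. The groups were separate at all 5 times and the ratio of the means from 2 h on was 0.377 to 0.409. The fall was called from 2 h to 24 h, with log2 changes between −1.17 ± 0.11 and −1.27 ± 0.10 (adjusted p = 2.4e-15 at 2 h). It was −0.38 ± 0.10 at 1 h. Against NS, IL-1β-plus-budesonide was called down at 6 h (−1.27 ± 0.11, adjusted p = 8.9e-15).

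TNFSF15 encodes TL1A, the ligand of the death receptor DR3 (TNFRSF25), which costimulates T and innate lymphoid cells. It was the only one of the 7 called in budesonide against NS. With a pseudocount of 0.1, TNFSF14 (1.59) and LTB (−1.21) at 24 h and TNFSF9 at 6 h (−1.05) were called too. At 24 h TNFSF15 had 0.0819, 0.0483, 0.0554 and 0.0980 TPM with budesonide, against 4.27, 3.29, 4.08 and 3.05 TPM in NS. At 2 h it already had 0.320, 0.391, 0.356 and 0.464 TPM with budesonide, against 2.54, 1.36, 1.91 and 1.94 TPM in NS. The groups overlapped at 1 h and were separate from 2 h, with ratios of means of 0.198, 0.0330, 0.0250 and 0.0193 at 2, 6, 12 and 24 h. The log2 changes in time order were −0.22 ± 0.18, −1.44 ± 0.18 (adjusted p = 4.95e-09), −2.38 ± 0.19, −2.65 ± 0.18 and −2.86 ± 0.18 (adjusted p = 8.5e-22).

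IL-1β raised TNFSF15 at 2 h. It had 6.52, 4.59, 6.22 and 3.53 TPM with IL-1β, against 2.54, 1.36, 1.91 and 1.94 TPM in NS, and the change of 1.22 ± 0.18 was called (adjusted p = 1.4e-07). From 6 h the IL-1β and NS libraries overlapped, and the step in the response between 2 and 6 h was −1.37 ± 0.26 (adjusted p = 5.4e-05). With both agents TNFSF15 at 24 h was 0.179, 0.160, 0.215 and 0.196 TPM with IL-1β-plus-budesonide, against 4.17, 1.88, 4.63 and 3.04 TPM with IL-1β. This fall was called from 2 h (−1.37 ± 0.18, adjusted p = 1.9e-08) to 24 h (−2.46 ± 0.18, adjusted p = 2.7e-18). IL-1β-plus-budesonide libraries nonetheless lay above all budesonide libraries at 1, 2, 6 and 24 h, and the difference was called at 2 h (1.29 ± 0.18, adjusted p = 3.6e-08). With a pseudocount of 1 it was 0.95 and not called, and with a pseudocount of 0.1 it was also called at 6 h (1.02).

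TNFSF10 encodes TRAIL, which can start apoptosis through TNFRSF10A and TNFRSF10B. It was present at 0.757 to 2.45 TPM in NS and rose with IL-1β at 6 h. It had 3.67, 3.16, 4.40 and 6.27 TPM with IL-1β, against 0.951, 0.757 and 1.23 TPM in NS. The change of 1.69 ± 0.23 was called at this time only (adjusted p = 1.2e-08). At 12 h the 4 IL-1β libraries had 1.13, 0.827, 1.53 and 3.62 TPM, of which 2 were above, 1 within and 1 below the 1.02 to 1.32 TPM of NS. The step up in the response from 2 to 6 h was 2.02 ± 0.32 (adjusted p = 1.3e-06) and the step down from 6 to 12 h was −1.39 ± 0.32 (adjusted p = 0.0017). Without the libraries numbered 2 the step down was −1.18 with an adjusted p of 0.0575.

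The 6 h rise of TNFSF10 was not seen with budesonide present. It had 0.823, 0.939, 0.617 and 0.83 TPM with IL-1β-plus-budesonide, against 3.67, 3.16, 4.40 and 6.27 TPM with IL-1β. The log2 change was −1.87 ± 0.22 (adjusted p = 1.2e-10), and the departure from the added changes of each agent was −1.43 ± 0.32 (adjusted p = 0.0010). Libraries with IL-1β-plus-budesonide overlapped NS libraries at every time.

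TNFSF13B encodes BAFF, a survival factor for B cells. Its time course had the same single peak, at a lower level. At 6 h it had 1.77, 2.39, 1.52 and 1.15 TPM with IL-1β, against 0.0167, 0.0198 and 0.368 TPM in NS. The log2 change of 1.81 ± 0.18 was called at 6 h (adjusted p = 7.1e-13). TNFSF13B passed the filter only through the 4 IL-1β libraries at 6 h, so p-values that involve this group are a description. At 12 h the change was 0.49 and not called, although with a pseudocount of 0.1 it was 1.02 and called (adjusted p = 0.0391). Steps in the response were 1.89 ± 0.25 between 2 and 6 h and −1.32 ± 0.25 between 6 and 12 h (adjusted p of 2.0e-08 and 0.00010). With budesonide added, it had 0.672, 0.345, 0.328 and 0.125 TPM with IL-1β-plus-budesonide at 6 h, a change of −1.35 ± 0.17 against IL-1β (adjusted p = 1.3e-09). With a pseudocount of 1 this change (−0.98) and the step between 6 and 12 h (−0.95) lost their calls, and with a pseudocount of 0.1 the 12 h change against IL-1β was also called (−1.10). Budesonide alone gave 0.13, 0.383, 0.362 and 0.715 TPM at 24 h, against 0.221, 0.119, 0.215 and 0.0337 TPM in NS. Those groups overlapped, and the change was 0.44 ± 0.17 (adjusted p = 0.030), under the minimum for a call.

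**Figure D2:**
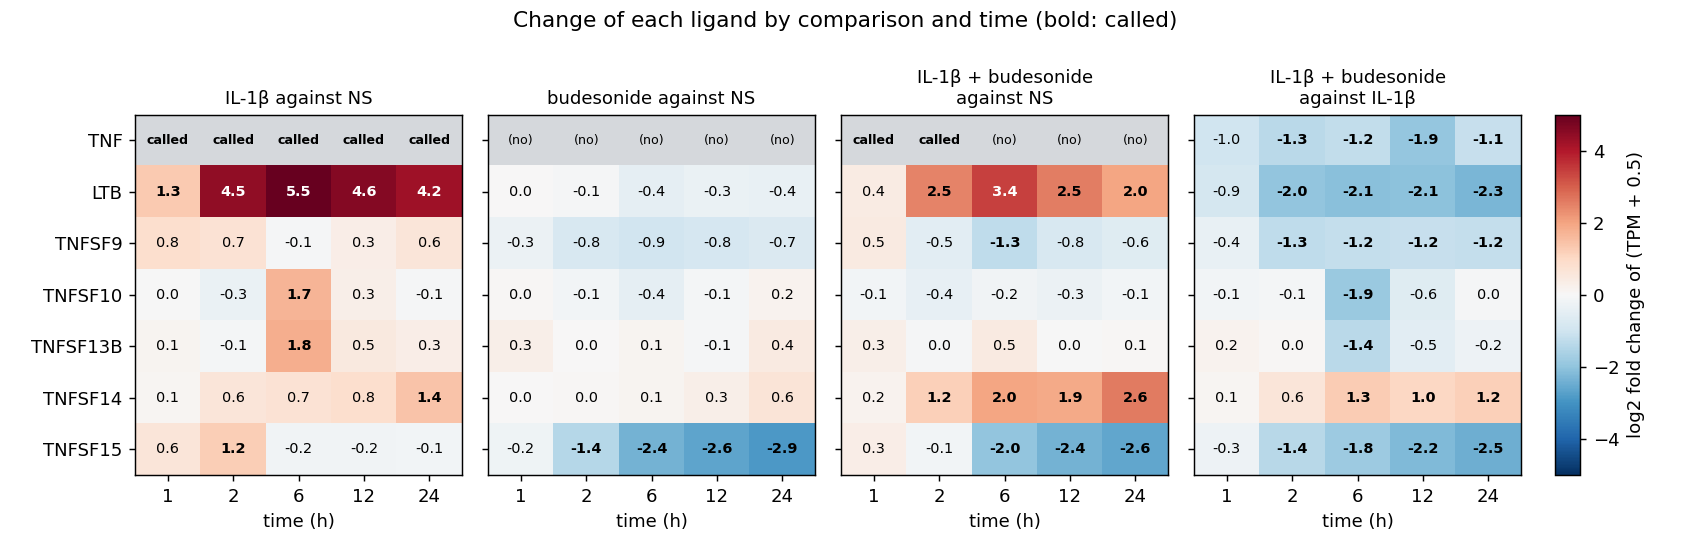
Log2 change of TPM + 0.5 (color and printed value) of each gene (rows) by time in hours (columns) in 4 comparisons, with bold for called changes. TNF is grey in the panels against NS, where NS and budesonide are at or near 0 and no fold is given. IL-1β gave the LTB maximum of 5.49 at 6 h, and budesonide alone had bold values in the TNFSF15 row only.

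The 7 genes and 5 times gave 35 tests per comparison. In IL-1β against NS 14 were called up, and over all genes and times tested 3.29% were called up. At 1 or more times 6 of the 7 genes were called up, against 7.53% of all genes. The IL-1β response changed between neighboring times in 8 of 28 steps, 4 up and 4 down, against 1.37% and 1.33% of all steps. In budesonide against NS 4 tests were called down, all of TNFSF15, against 1.92% of all tests. In IL-1β-plus-budesonide against NS 10 were called up (TNF, LTB and TNFSF14) and 4 down (TNFSF15 and TNFSF9), against 3.28% and 2.41% of all tests. The 10 came from 3 genes and the 4 from 2.

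In IL-1β-plus-budesonide against IL-1β 18 of the 35 tests were called down and 3 up, against 2.03% down and 2.02% up over all genes and times. The 18 belonged to 6 genes and the 3 to TNFSF14. The median log2 change over the 35 tests was −1.15, against −0.01 over all genes. Because TNF, LTB, TNFSF13B and TNFSF14 passed the filter only through their high groups, these shares describe the 7 genes and do not compare them with a family at large. In IL-1β-plus-budesonide against budesonide 11 tests were called up (LTB, TNF, TNFSF14 and TNFSF15), against 1.93% of all tests.

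**Figure D3:**
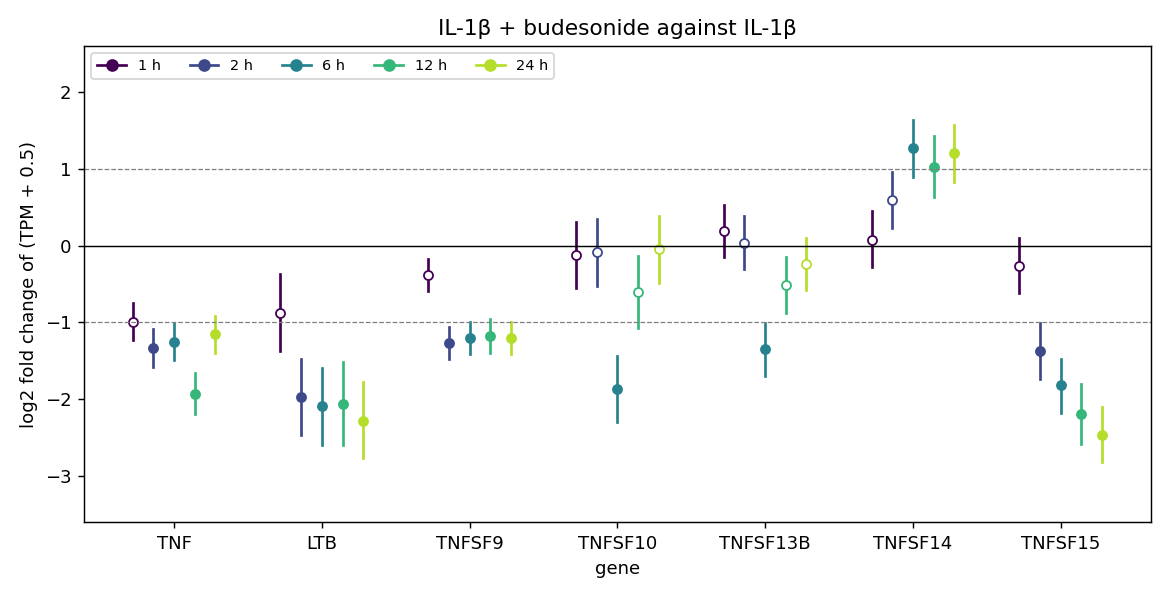
Log2 change of TPM + 0.5 in IL-1β-plus-budesonide against IL-1β (y axis) for each gene (x axis) at 1, 2, 6, 12 and 24 h from left to right, with 95% confidence intervals. Filled points were called and dashed lines mark the minimum change. TNFSF14 was the one gene above the upper line, and TNFSF10 and TNFSF13B had called points at 6 h only.

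The interaction, by which the change with both agents differs on the log2 scale from the added changes of each agent, was called in 10 tests below 0 and 1 above, against 1.19% and 1.12% of all tests. It was below 0 for LTB (−1.91, −1.66, −1.71 and −1.88 at 2, 6, 12 and 24 h) and for TNF at the same times. TNF was at or near 0 without IL-1β, so budesonide alone had almost nothing to lower. Its interaction therefore restates the change in IL-1β-plus-budesonide against IL-1β and was within 0.03 of it (−1.32 and −1.33 at 2 h, −1.22 and −1.25 at 6 h). The TNF interactions at 6 and 24 h lost their calls with a pseudocount of 1 (−0.86 and −0.80). At 24 h the LTB ratio of means was 0.175 for budesonide against NS and 0.176 for IL-1β-plus-budesonide against IL-1β. The LTB interactions had adjusted p-values of 0.0783 to 0.139 with a pseudocount of 0.1. For TNFSF15 and TNFSF9 it was not called at any time, with values of −0.04 to 0.56 for TNFSF15 and −0.46 to −0.10 for TNFSF9. The TNFSF15 value at 6 h was 1.20 and called with a pseudocount of 0.1.

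**Figure D4:**
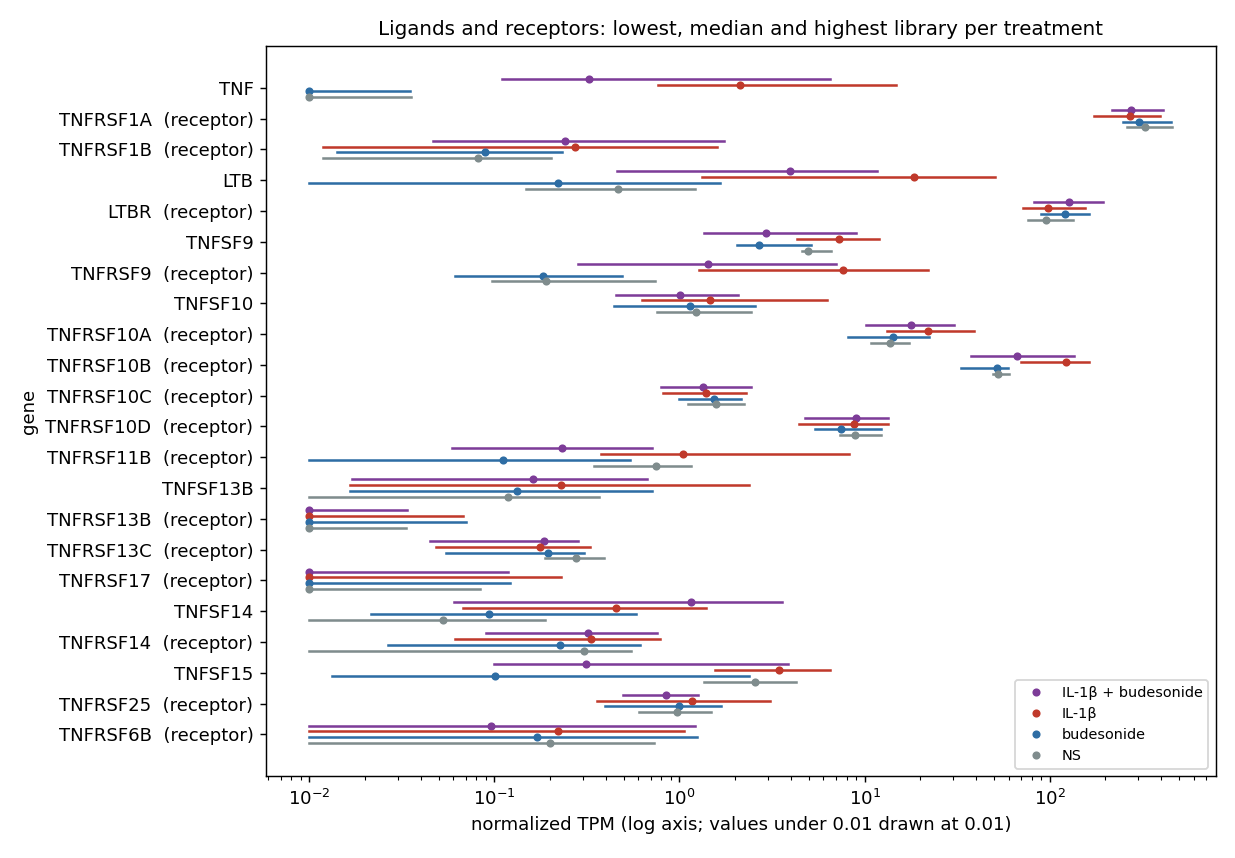
Lowest, median and highest library of each treatment over the 5 times, in normalized TPM on a log axis (x axis), for each ligand followed by its receptors (y axis). TNFRSF1A, LTBR and TNFRSF10B lay far above their ligands, and the receptors of TNFSF13B lay under 1 TPM.

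Of the 15 receptors of these ligands listed, 11 passed the filter. The main TNF receptor TNFRSF1A (174 to 460 TPM over all libraries) and LTBR (71.8 to 194 TPM) were each above their ligands in every library. The BAFF receptors TNFRSF13B, TNFRSF13C and TNFRSF17 and the LIGHT receptor TNFRSF14 stayed under 1 TPM. IL-1β called up 5 of the 11 at 1 or more times (7.53% of all genes), and IL-1β-plus-budesonide called 3 of them down against IL-1β (5.6% of all genes). TNFRSF9 did not exceed 0.736 TPM in NS or 0.489 TPM with budesonide, and TNFRSF1B did not exceed 0.203 and 0.232 TPM. Both therefore passed the filter only through groups with IL-1β, and the counts of called receptors are a description. TNFRSF9, the receptor of TNFSF9, had 15.4 to 21.9 TPM with IL-1β at 6 h, against 0.149 to 0.578 TPM in NS (log2 change 4.52, adjusted p = 1.3e-27). It fell with IL-1β-plus-budesonide to 4.96 to 6.80 TPM, a change of −1.52 against IL-1β (adjusted p = 3.1e-09).

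The TRAIL receptors TNFRSF10B and TNFRSF10A also rose with IL-1β. TNFRSF10B had 144 to 163 TPM with IL-1β at 2 h, against 50.6 to 54.3 TPM in NS (log2 change 1.53, adjusted p = 1.2e-16). TNFRSF10A had 27.1 to 38.8 TPM with IL-1β at 6 h, against 12.4 to 17.4 TPM in NS (1.20, adjusted p = 2.3e-06). TNFRSF11B encodes osteoprotegerin, a secreted decoy that can bind TRAIL. It had 4.12 to 8.27 TPM with IL-1β at 6 h, against 0.381 to 0.943 TPM in NS (2.46, adjusted p = 3.15e-14), and was the one receptor called down by budesonide alone (−1.46 at 24 h, adjusted p = 3.5e-08), a call that 6.36% of all genes had. In IL-1β-plus-budesonide against NS 3 receptors were called up and 1 down, against 7.64% and 7.92% of all genes.

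Of 16 genes that carry the signal inside the cell, all passed the filter, 9 were called up by IL-1β at 1 or more times, against 7.53% of all genes. Their median log2 change over the times was 0.72, against −0.05 over all genes. TNFAIP3 encodes A20, a ubiquitin-editing inhibitor of NF-κB, and rose by 5.74 at 1 h (138 to 194 TPM with IL-1β, against 1.87 to 3.42 TPM in NS, adjusted p = 1.1e-30). The inhibitor of apoptosis BIRC3 rose by 4.82 at 2 h and TRAF1 by 3.43 at 2 h. The noncanonical NF-κB subunits NFKB2 and RELB, which act downstream of LTBR, rose by 3.46 and 3.54 at 24 h. In IL-1β-plus-budesonide against IL-1β 3 of the 16 were called down, against 5.6% of all genes. Budesonide alone called 2 up and 3 down, against 4.87% and 6.36% of all genes. BIRC3 was among those raised by budesonide (2.18 at 24 h, adjusted p = 1.3e-17).

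Of 8 genes for mRNA decay, 3 were called up by IL-1β (7.53% of all genes), 2 by budesonide (4.87%) and 1 by IL-1β-plus-budesonide against IL-1β (5.15%). ZFP36 encodes tristetraprolin, which binds AU-rich elements of TNF mRNA. It had 44.4 to 59.1 TPM with IL-1β-plus-budesonide at 6 h, against 12.5 to 17.8 TPM with IL-1β, a log2 change of 1.82 (adjusted p = 3.65e-10). At 1 and 2 h the same comparison gave −0.22 and 0.23, neither of them called. ZC3H12A, an endonuclease for inflammatory mRNAs, rose with budesonide alone by 1.90 at 6 h (adjusted p = 3.4e-12). Of 6 genes for shedding and processing of ligands, 5 passed the filter and 2 were called up by IL-1β (7.53% of all genes), among them RHBDF2 (1.13 at 6 h, adjusted p = 2.5e-10), a partner of the protease ADAM17 that releases TNF.

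Of 11 other ligands of the family, 3 passed the filter and 8 did not. CD70 had 3.68 to 22.9 TPM over all libraries, TNFSF12 4.68 to 19.3 TPM and TNFSF13 2.17 to 4.71 TPM. Their log2 changes in IL-1β against NS lay between −0.89 (TNFSF12 at 6 h) and 0.77 (CD70 at 6 h), under the minimum for a call. LTA, the partner of LTB in the lymphotoxin heterotrimer, did not exceed 0.303 TPM, and it lies 1241 bases from TNF.

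Each time course was compared with those of all other genes tested, by Pearson's correlation over the 20 group means on the log2 scale, as a description. TNF was most like CSF2 (r = 0.977), PLAU (0.964) and IRF1 (0.962), and LTB most like OLR1 (0.983), TNFAIP6 (0.979) and the receptor gene TNFRSF9 (0.977). TNFSF13B was most like the interferon-responsive genes XAF1 (0.946) and GBP4 (0.944) and like TRIM38 (0.927). Its mean was 1.71 TPM with IL-1β at 6 h and at most 0.409 TPM in any other group, so these correlations lean on 1 group. TNFSF14 was most like the acute phase genes ORM1 (0.953), SAA1 (0.951) and SAA2 (0.941), and TNFSF15 most like FZD8 (0.975). TNFSF9 and TNFSF10 had less close companions (NR4A2 at 0.941 and C17orf67 at 0.854). Among the 7 genes themselves the closest were TNFSF9 with TNFSF15 (0.885), TNFSF10 with TNFSF13B (0.737) and TNF with LTB (0.616).

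Genes next to the ligands on the chromosome gave different pictures. C3, a complement gene 7116 bases from TNFSF14, had 660 to 812 TPM with IL-1β-plus-budesonide, 276 to 550 TPM with IL-1β, 102 to 183 TPM with budesonide and 8.90 to 26.6 TPM in NS at 24 h. These ranges had the same order as those of TNFSF14. In IL-1β-plus-budesonide against IL-1β C3 was called up at 6 h (1.24, adjusted p = 0.0011) and 12 h (1.24, adjusted p = 0.0027). CD70, 57150 bases from TNFSF14 on the other side, had another order. Its means at 24 h were 6.5 TPM with IL-1β-plus-budesonide, 9.58 TPM with IL-1β, 4.17 TPM with budesonide and 8.56 TPM in NS. LST1, 3602 bases from LTB, had 2.39 to 5.67 TPM with IL-1β at 24 h, against 0.0567 to 0.611 TPM in NS (2.25, adjusted p = 5.1e-06). NFKBIL1, 16736 bases from TNF on the other side, stayed between 4.2 and 11.0 TPM over all libraries.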

How the data were processed

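Polyadenylated RNA of A549 cells was sequenced in stranded libraries. Per the labels, the authors used kallisto and sleuth with the human build GRCh38 (hg38). The deposited table holds TPM that the authors rescaled between libraries, used here as a normalized signal and not rescaled. A deposited comparison table with the authors' log2 fold changes and adjusted p-values was not used, nor were the values of 1 library without a label, which the table names as NS at 6 h. The NS group at 6 h, the reference of every 6 h change against NS, therefore held 3 libraries. The values keep no read totals, so the depth per library is unknown and no counting interval is given. Values summed to 812680 to 1009499 per library.

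Values were fitted in limma 3.58.1 (R 4.3.3) as log2(value + 0.5) with 1 mean per group, a trend on mean level and 58 residual degrees of freedom, after a filter of 1 TPM in 3 libraries that kept 13327 genes and removed 6325. Tests were two-sided with Benjamini-Hochberg adjustment over all genes. P-values measure the spread between libraries. Values after ± are SE for log2 changes and SD for TPM. Members and lists were chosen with earlier results of these data known. Named were the 7 members, up to 8 genes per list with the largest time-averaged change among those called at 2 or more times, the 3 genes most like each member and the 2 nearest genes on each side. List members given by level only, and TNFSF18, were chosen after their values were seen. Alternatives were other pseudocounts, filters, scalings, a replicate block and omitted libraries. The fit was tested on simulated data.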

Additional observations from a re-analysis of the deposited data

Results flagged for a closer look

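Within groups of 4, 1 library stood apart from the rest in 7 of 120 cases looked at. Chance alone sets apart about 1 in 20 groups under this rule for continuous values, and in 3 of the 7 cases the other libraries were tied at 0. TNF was at 0.035 TPM in budesonide at 1 h number 4, at 0.0356 TPM in NS at 1 h number 4 and at 0.0262 TPM in NS at 2 h number 3, with the other libraries of each group at 0. TNF was at 0.11 TPM in IL-1β-plus-budesonide at 24 h number 4, with the others at 0.306 to 0.325 TPM. TNFSF9 was at 3.72 TPM in IL-1β-plus-budesonide at 24 h number 1, with the others at 2.87 to 2.95 TPM. TNFSF14 was at 0.165 TPM in IL-1β at 1 h number 3, with the others at 0.0679 to 0.0805 TPM. TNFSF13B was at 0.178 TPM in NS at 12 h number 4, with the others at 0.117 to 0.121 TPM.

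The IL-1β response differed between neighboring times, by the called log2 difference later minus earlier. Between 1 and 2 h this was 3.17 for LTB. Between 2 and 6 h it was −2.91 for TNF, 1.04 for LTB, 2.02 for TNFSF10, 1.89 for TNFSF13B and −1.37 for TNFSF15. Between 6 and 12 h it was −1.39 for TNFSF10 and −1.32 for TNFSF13B. The LTB step between 2 and 6 h lost its call with any 1 set of same-numbered libraries left out. The steps down to 12 h lost theirs without the libraries numbered 2 (TNFSF10) and with a pseudocount of 1 (TNFSF13B). Over all genes and steps tested, 1.37% were called up and 1.33% down. The effect of budesonide differed between cells with and without IL-1β, by the called interaction, for TNF at 2, 6, 12 and 24 h (−1.32, −1.22, −1.93 and −1.15), LTB at those times (−1.91, −1.66, −1.71 and −1.88), and at 6 h for TNFSF10 (−1.43), TNFSF13B (−1.49) and TNFSF14 (1.14). The TNF values depend on the pseudocount and restate the change in IL-1β-plus-budesonide against IL-1β, because the gene was at or near 0 without IL-1β. The LTB interactions lost their calls with a pseudocount of 0.1. At 24 h the LTB ratio of means was 0.175 for budesonide against NS and 0.176 for IL-1β-plus-budesonide against IL-1β. The LTB interaction at 24 h therefore does not reflect a difference in this ratio. The TNFSF14 interaction lost its call with a pseudocount of 0.1 or 1 and without the libraries numbered 1.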

How the results depend on the processing

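Over the 6 comparisons, at each time and averaged over times, and the steps between neighboring times, 99 results were called, and none changed direction under any alternative run. A pseudocount of 0.1 kept 93 and added 23, and a pseudocount of 1 kept 82. Median-of-ratios scaling and no trend on mean level kept all 99, and quantile normalization and no filter on low values kept 98. The counts of called tests moved over 1.5-fold as follows. With a pseudocount of 0.1 they were 7 for budesonide against NS and 7 for the interaction. With genes of a mean of at least 5 TPM, where LTB alone was left of the 7, they were 5 for IL-1β against NS, 0 for budesonide against NS, 4 for IL-1β-plus-budesonide against NS, 4 for it against IL-1β, 4 for the interaction and 2 for the response between neighboring times. With no minimum fold they were 22 for IL-1β against NS and 10 for budesonide against NS. Leaving out same-numbered libraries in turn gave 14 to 15 calls for IL-1β against NS, 4 to 5 for budesonide against NS, 14 in each case for IL-1β-plus-budesonide against NS, 20 to 22 for it against IL-1β, 10 to 12 for the interaction and 6 to 7 for the neighboring times. Library numbers were shared across treatments. Libraries of the same number deviated together in 111 of 114 pairs (correlation over 0.1, median 0.266, lowest −0.119), and those of other numbers had a median of −0.0939. With the replicate block all 99 calls were kept and 0 were gained, with 14 calls for IL-1β against NS and 21 for IL-1β-plus-budesonide against IL-1β. The block without the 5 far libraries, chosen after seeing the data, kept all 99 and added 3. The limits are the unknown depth, low levels, at which calls of TNF, LTB, TNFSF13B, TNFSF14 and TNFSF15 follow the pseudocount, and groups of 3 or 4 libraries.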

Other observations

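TNFSF14 and TNFSF10 differed between the libraries numbered 4 and the rest, in opposite directions. TNFSF14 was lowest in number 4 at 4 of 4 times from 2 h to 24 h with IL-1β-plus-budesonide and at 4 of 4 times with IL-1β. With IL-1β at 24 h it had 0.463 TPM in number 4, against 0.932 to 1.4 TPM in the others. TNFSF10 was highest in number 4 at 3 of 4 times in both treatments, with 6.27 TPM against 3.16 to 4.4 TPM in the others at 6 h with IL-1β. XAF1, the gene most like TNFSF13B, had 8.14 TPM with IL-1β at 12 h in number 4, against 1.56 to 2.97 TPM in the others. GBP4 had 2.03 TPM in number 4 at that time, against 0.562 to 0.662 TPM. TNFSF13B itself was lowest in number 4 at 1 of 4 times with IL-1β and highest at 1. At 6 h with IL-1β it had 1.15 TPM in number 4, against 1.52 to 2.39 TPM in the others. The labels do not say whether a number marks 1 experiment, and what sets these libraries apart was not tested.

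TNFSF18, a ligand that did not pass the filter, had 0.0894 to 0.942 TPM with IL-1β at 2 h, against 0 TPM in each NS library. At 12 h it did not exceed 0.0229 TPM with IL-1β. TNFRSF1B, the second TNF receptor, had 1.26 to 1.75 TPM with IL-1β-plus-budesonide and 0.841 to 1.6 TPM with IL-1β at 6 h, against 0.0119 to 0.174 TPM in NS. TNC, an extracellular matrix gene on the same chromosome as TNFSF15, had 6.92 to 17.9 TPM with IL-1β at 6 h, against 0.310 to 0.552 TPM in NS.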
